A study of Arabidopsis thaliana with 12 samples.

Results

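The genes described here are the 171 of 26891 measured genes whose transcripts were abundant in WT *Arabidopsis* at 22°C, stood at least 2-fold lower in heated WT, and stood at least 2-fold higher in heated *cry1* than in heated WT. Levels are CPM, the counts of a gene divided by the total of its library and multiplied by 1e6, averaged over the 3 libraries of a group. A member had at least 5 CPM in WT at 22°C, at 44°C at most 0.5 of that level, a *cry1* level at 44°C at least 2 times that of WT, and a *cry1* level at 22°C under 2 times that of WT. *ELIP1* and *ELIP2* were left out by name, of which only *ELIP2* met the other conditions. These values chose the genes, so the levels below are a description and carry no test. The working name of the group, genes that fall with heat only where CRY1 is present, was not borne out by the levels: 136 of the 171 also stood at least 2-fold lower at 44°C than at 22°C in *cry1*, and 35 did not.

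Seedlings of WT (Columbia) and of the *cry1* mutant, 1 mutant line, were compared in blue light. According to the labels, 7 days of unbroken light were followed by 1 day of blue light, at which point the seedlings were 8 days old. Part of each genotype then stayed at 22°C and part was exposed to 44°C during 2 h, with 3 libraries from whole seedlings in each of the 4 groups. The study's methods describe the 3 libraries of a group as independent biological replicates.

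Cryptochrome 1 is a blue-light receptor that acts in the nucleus, in large part by holding back the COP1 ubiquitin ligase and so stabilising transcription factors such as HY5, which binds ACGT-containing promoter elements. Acute heat redirects transcription towards chaperones, and transcripts for growth, cell-wall loosening, primary metabolism and specialised metabolism fall. Because an RNA-seq library is a fixed pool, a level here is a share of the counts, and less RNA per cell cannot be told apart from fewer cells of a type.

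Total counts ranged from 10539271 to 14295796 in the 6 WT libraries and from 15228953 to 21752824 in the 6 *cry1* libraries, so the mutant libraries were deeper. *CRY1* stood at 213 CPM in WT at 22°C and 164 in WT at 44°C, against 0.199 and 0 in *cry1*. *HSP101*, a chaperone that dissolves protein aggregates, stood at 15195 to 15677 CPM in heated WT and 18014 to 19756 in heated *cry1*, and at no more than 29.5 CPM in any library at 22°C. The listed chaperone and heat-response genes took 0.433 to 0.672% of the counts at 22°C, 15.2 to 16.5% in heated WT and 18.8 to 20.2% in heated *cry1*. Both green-tissue markers (*RBCS1A* and *CAB1*) and both root markers (*TIP2;3* and *PIP2;4*) were present in all 4 groups. *TIP2;3* stood higher in *cry1* at 22°C (64.3 to 99.7 CPM in WT, 113 to 192 in *cry1*) and overlapped after heat (30.1 to 44.1 and 43.8 to 51.3), while *PIP2;4* overlapped at 22°C (41.8 to 54.1 and 51.8 to 73.1) and stood lower in heated *cry1* (51.1 to 55.9 and 36.7 to 43.6). *RBCS1A* stood lower in *cry1* without overlap at 22°C (means of 11644 and 7932 CPM) and at 44°C (2752 and 2069). *CAB1* stood at 13801 CPM in WT and 11095 in *cry1* at 22°C, and at 18061 and 15741 after heat, the opposite direction on heating to *RBCS1A*. The part of root or green tissue in the results was not tested.

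The 171 members together took 1.17% ± 0.00788 of the counts in WT at 22°C (SD, n = 3) and 0.174% ± 0.00298 in heated WT. In *cry1* they took 1.31% ± 0.0768 at 22°C and 0.416% ± 0.0419 after heat. Both genotypes therefore lost most of the pool, and *cry1* kept more of it. The heated *cry1* library of replicate 2 held the largest share among the 3 (0.462%, against 0.404 and 0.381%).

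Per gene, heated WT kept a median of 7.97% of its 22°C level (quartiles 2.75 and 19.3%, highest 47.6%). Heated *cry1* kept a median of 18.9% (quartiles 7.87 and 43.6%, highest 142%). In *cry1*, 102 members stood at least 4-fold lower after heat and 51 at least 10-fold lower, while in WT 142 and 93 did. The ratio of *cry1* to WT at 44°C, over the 160 members with counts in heated WT, had a median of 2.33 and an upper quartile of 2.79, close above the 2-fold that the rule demands. It reached 3 in 34 members and 5 in 9.

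**Figure D1:**
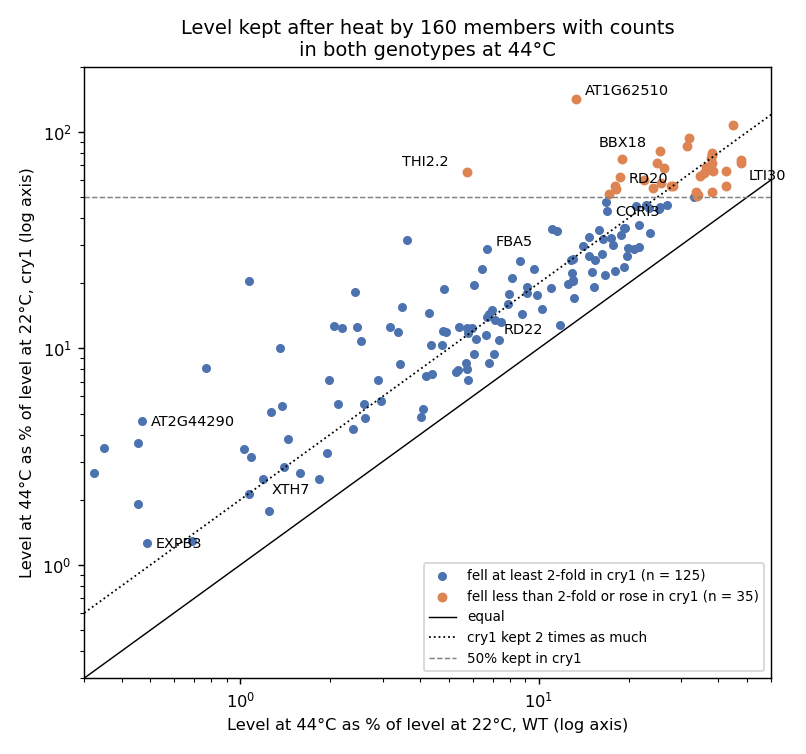
Each point is one of the 160 members with counts in heated WT and heated cry1, with the level at 44°C as a percentage of the level at 22°C in WT (x axis) and in cry1 (y axis), both log axes. All points lie above the line of equality, as the limits of the rule at 22°C and 44°C require. The dashed line at 50% kept in cry1 has 35 points above it, while XTH7, EXPB3 and RD22 lie below it.

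In the edgeR fit over all 20214 genes tested, 171 members were called lower in heated WT and 0 higher (46.2% and 7.56% of all genes), and 135 lower and 0 higher in heated *cry1* (58% and 5.75%). Heated *cry1* against heated WT was called higher for 129 members (2.31% of all genes), and 64 fell less in *cry1* than in WT by the interaction term (1.43%), against 0 that fell more (6.81%). The count of 64 was 99 under TMM, 100 under median-ratio scaling and 109 with DESeq2. The rule used these contrasts, so nothing is read from the counts. The median log2 fold change on heating was -3.62 over the members and -0.89 over all genes in WT, and -2.41 and -1.27 in *cry1*. Set against that median gene, 127 members fell further and 44 less far in *cry1*. All 3 heated *cry1* libraries were above all 3 heated WT libraries for 136 members (14.1% of all genes), and all unheated WT libraries were above all heated WT libraries for 171 (65%).

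The scale matters for the word "fall". Under TMM or median-ratio scaling, which take the median gene as unchanged, every heat response moved up by 0.78 to 0.81 on the log2 scale in WT and 1.16 to 1.19 in *cry1*. Of the same 171 genes, 150 then stood at least 2-fold lower in heated WT and 96 in heated *cry1*, and 41 (TMM) or 43 (median-ratio) stood above their 22°C level in *cry1*. The ratio at 44°C moved by 0.13 to 0.14 only. Lower levels in heated *cry1* were the more frequent outcome: of the 6829 genes that fell at least 2-fold in WT from 5 CPM or more, 2.5% met the rule and 4.11% stood at least 2-fold lower in heated *cry1* than in heated WT. With the genotypes exchanged, the rule took 375 genes in place of 171. These were 4.17% of a larger base, the 8989 genes that fell at least 2-fold in *cry1* from 5 CPM or more. Both comparisons used library totals and were not repeated under TMM or median-ratio scaling.

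The rule lets in genes with few counts after heat. Summed over the 3 heated WT libraries, 33 members had under 10 counts, 67 under 30 and 121 under 100. Among the 104 members with 30 counts or more, *cry1* kept a median of 32.2% and WT 17.3%, 69 stood at least 2-fold lower in heated *cry1*, and the heated *cry1* libraries all lay above the heated WT libraries for 97 (14.1% of all genes, on a contrast that the rule used). Just inside the 2-fold ratio at 44°C were AT5G17900 (2.00163) and AT1G76020 (2.00354), and just outside AT2G04080 (1.99979) and *MYB47* (1.99748). Nearest the limit on the fall in WT were *LTI30* (0.476 of its 22°C level) and *SIP3* (0.475) inside, and *SEX1* (0.508) and *PCNA2* (0.574) outside. *CORI3* and AT1G33790 lay just under the limit at 22°C with 2.00 and 1.98 times the WT level, and AT3G27250 (2.08) and AT1G52000 (2.11) just over it. For the 5 CPM floor these were AT5G52950 (5.05 CPM) and *ATL4* (5.06) inside, and AT5G35740 (4.96) and *CIPK17* (4.76) outside.

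To see how far the choice carries to libraries that it did not use, the rule was applied to 2 replicate numbers and read in the 4 libraries of the third. Of the 214, 172 and 221 genes chosen without replicate 1, 2 and 3, the left-out libraries repeated the fall in WT for 97.2, 94.2 and 97.3%. The left-out heated *cry1* library was above the left-out heated WT library for 76.6, 76.7 and 77.8%, and at least 2-fold above it for 39.3, 56.4 and 35.3%. All 4 conditions were met again by 33.2, 44.2 and 28.1%. Over all genes that fell in WT, the left-out libraries gave a higher level in *cry1* for 36.7, 46.6 and 44.7%, and a 2-fold higher level for 4.28, 7.04 and 4.86%. The 2-fold condition counts 0 against 0 as met, which was so for 12, 9 and 12 of the chosen genes.

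**Figure D2:**
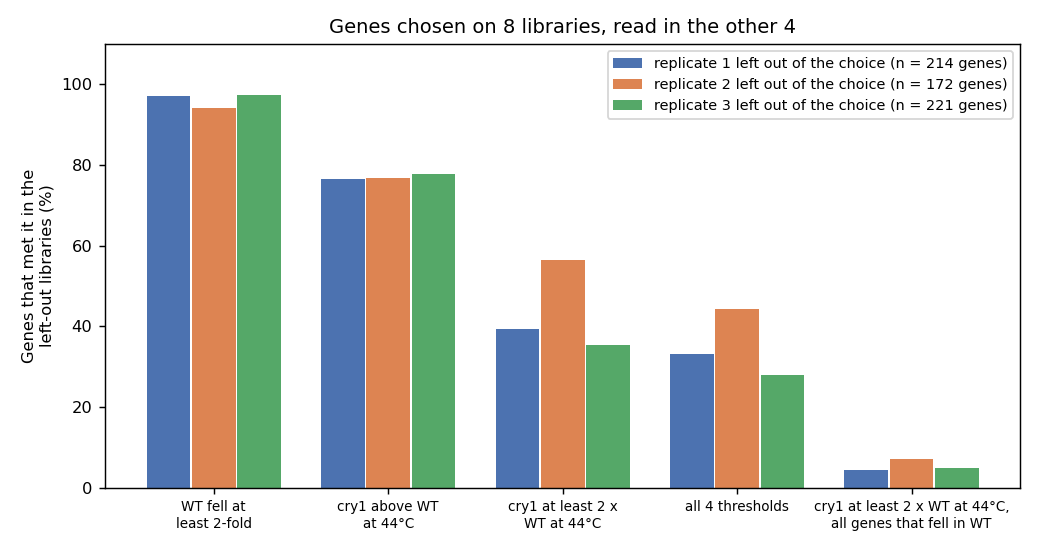
Percentage of genes chosen on 8 libraries (y axis, from 0) that met each condition of the rule (x axis) in the 4 libraries left out, with 1 colour per replicate number. The fall in WT was met by 94.2 to 97.3%, all 4 conditions by 28.1 to 44.2%, and the last group of bars gives the 2-fold ratio over all genes that fell in WT (4.28 to 7.04%).

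By annotation, 93 members could be placed in 10 role groups, which were drawn up after the values were known, and 78 had no clear role. Genes of dehydration and osmotic stress had the highest median share kept of the 10 role groups, in heated *cry1* and also in heated WT. Their median ratio at 44°C, 2.14, was the lowest of the role groups (2.33 over all members). The 7 of them kept a median of 34.2% of the 22°C level in WT and 61.5% in *cry1*. For all 7 the heated *cry1* libraries lay above the heated WT libraries (136 of all 171 members and 14.1% of all genes). *RD20* encodes a caleosin, a lipid-droplet protein induced by drought and abscisic acid. It stood at 38.6, 54.8 and 32.2 CPM in WT at 22°C, 9.01, 9.61 and 4.86 in heated WT, 61, 52.7 and 44.9 in *cry1* at 22°C, and 30.3, 38.5 and 28.6 in heated *cry1*. The heated *cry1* libraries reached into the range of unheated WT, and the heated WT libraries lay below every other library. The ratio at 44°C was 4.15, the largest of the 7.

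*P5CS1*, the rate-limiting enzyme of proline synthesis under osmotic stress, stood at 320, 282 and 340 CPM in WT at 22°C and 111, 158 and 74.3 after heat. In *cry1* it stood at 341, 357 and 362 CPM before heat and 242, 291 and 200 after. The heated WT libraries were far apart, yet the highest of them stayed below the lowest of heated *cry1*. *SIP3* (also known as *CIPK6*), a protein kinase that works with calcineurin-B-like calcium sensors, stood at 414, 357 and 370 CPM and then 199, 185 and 159 in WT. In *cry1* it stood at 556, 602 and 555 CPM and then 422, 454 and 389. Heated *cry1* thus overlapped with unheated WT, and both genotypes were separated at each temperature. *LTI30*, a dehydrin that protects membranes in cold and drought, stood at 37.9, 35.8 and 24.6 CPM in heated WT and 73.6, 68.4 and 61.1 in heated *cry1*. *SIP3* and *LTI30* kept more than any other member in WT (47.5 and 47.6%) and so sit at the edge of the rule.

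*RD22*, a BURP-domain protein used as a marker of abscisic acid response in drought, behaved differently within the group. It was among the most abundant members, with 918, 932 and 742 CPM in WT at 22°C and 1420, 1194 and 893 in *cry1*. After heat it stood at 60.1, 56.8 and 67.9 CPM in WT and 134, 194 and 148 in *cry1*. It kept 7.13% in WT and 13.6% in *cry1*, a fall of 14-fold and 7.38-fold. *GolS4*, a galactinol synthase that starts the raffinose sugars, and *PLC1*, a phospholipase C that cuts phosphoinositides, were the lowest of the 7, with 1.76 and 1.75 CPM in heated WT and 3.63 and 3.65 in heated *cry1*.

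All 7 of these genes have the letters ACGT, the core of the elements bound by bZIP factors, in the 250 bases before the gene start, against 44.6% of the promoters of all genes tested. The role group was formed with the values known, so the count is a description. The promoters of 4 of them, chosen after the matches were seen, are shown as examples of fuller elements: *RD20* and *SIP3* hold a G-box (CACGTG), *LTI30* a pair of DRE motifs (ACCGAC, the drought and cold element bound by DREB and CBF factors), and *RD22* a pair of MYC sites (CACATG), as does *PLC1*, which is not shown. Sequences are RefSeq TAIR10.1, 250 bases ending at the base before the gene start, 5′ to 3′ on the gene's strand. Capitals mark ACGT and the motif named, and overlapping matches run together. The windows are chr2:14146556-14146805 (minus strand) for *RD20*, chr3:18940393-18940642 (plus strand) for *LTI30*, chr4:15066778-15067027 (plus strand) for *SIP3* and chr5:8916857-8917106 (minus strand) for *RD22*.
RD20: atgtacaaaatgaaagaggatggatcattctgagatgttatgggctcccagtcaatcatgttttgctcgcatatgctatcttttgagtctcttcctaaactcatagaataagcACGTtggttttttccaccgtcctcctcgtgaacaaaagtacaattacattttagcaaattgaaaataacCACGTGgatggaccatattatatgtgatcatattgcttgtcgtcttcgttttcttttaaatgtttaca
LTI30: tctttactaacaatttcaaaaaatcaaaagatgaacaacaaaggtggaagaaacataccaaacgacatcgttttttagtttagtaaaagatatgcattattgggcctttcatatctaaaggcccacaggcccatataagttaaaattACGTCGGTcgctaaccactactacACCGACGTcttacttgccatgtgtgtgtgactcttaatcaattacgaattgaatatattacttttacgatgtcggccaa
SIP3: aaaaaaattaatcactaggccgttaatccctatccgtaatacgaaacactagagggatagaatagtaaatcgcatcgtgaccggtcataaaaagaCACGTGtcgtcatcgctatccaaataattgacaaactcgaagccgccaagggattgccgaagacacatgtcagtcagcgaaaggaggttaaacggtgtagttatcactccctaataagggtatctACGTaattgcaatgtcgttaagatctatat
RD22: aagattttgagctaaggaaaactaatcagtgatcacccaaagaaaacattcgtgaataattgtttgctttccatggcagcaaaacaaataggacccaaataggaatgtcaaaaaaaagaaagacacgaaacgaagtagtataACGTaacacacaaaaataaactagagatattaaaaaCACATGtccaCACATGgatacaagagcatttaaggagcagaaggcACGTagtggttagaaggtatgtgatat
Counted back from the gene start, with -1 the base before it, the G-box begins at -68 in *RD20* and at -155 in *SIP3*. The DRE matches of *LTI30* begin at -101 and -79 on opposite strands, each overlapping an ACGT. The MYC sites of *RD22* begin at -72 and -62.

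The wider list of cold and dehydration genes held 22 tested genes, of which *RD22*, *RD20* and *LTI30* were members. Members were chosen for a higher level in heated *cry1*. The higher calls at 44°C in this and later lists can therefore include the rule's own choices. In *cry1* against WT at 44°C, 13 of the 22 were called higher and 0 lower (2.31 and 3.53% of all genes), with a median log2 fold change of 1.20 against -0.10 over all genes. At 22°C 8 were called higher and 0 lower (3.39 and 1.55% of all genes). On heating, 7 were called higher and 8 lower in WT (7.56 and 46.2% of all genes), and 8 and 3 in *cry1* (5.75 and 58%). The list's median in WT was -0.28 with library totals and 0.53 with TMM scaling.

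**Figure D3:**
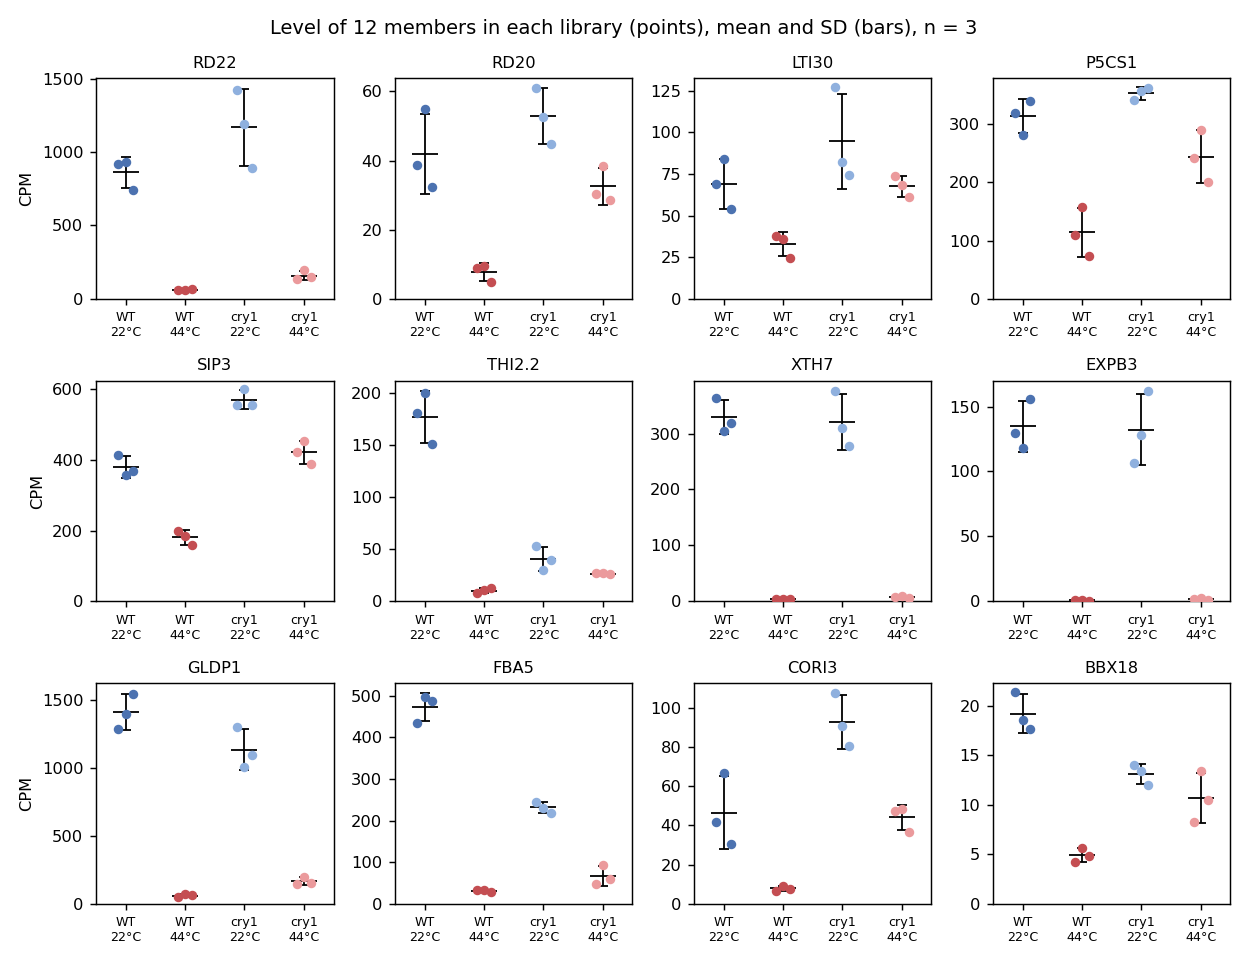
CPM (y axes, linear and from 0) of 12 members in every library, with points for libraries, the bar at the mean and whiskers for the SD (n = 3). Heated cry1 stands above heated WT in all 12 panels by the mean, as the rule demands, with overlapping libraries for EXPB3 only. It stays below unheated cry1 by the mean in all 12.

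Genes of light signalling, flowering, chloroplasts and photorespiration numbered 8, counting *FBA5*, whose enzyme is cytosolic. Unlike most members they stood lower in *cry1* than in WT before heat: 7 of the 8 did, with a median ratio of 0.652 at 22°C against 1.21 over all members. *GLDP1*, the P-protein of glycine decarboxylase that frees CO2 in photorespiration, stood at 1287, 1398 and 1546 CPM in WT at 22°C and at 51.9, 68.5 and 61.1 after heat. In *cry1* it stood at 1298, 1004 and 1097 CPM and then 145, 197 and 153. It kept 4.29% in WT and 14.6% in *cry1*. *FBA5*, a cytosolic fructose-bisphosphate aldolase, stood at 435, 496 and 487 CPM and then 32.5, 33.3 and 29.4 in WT. In *cry1* it stood at 245, 231 and 219 CPM and then 46.7, 94.1 and 58.4. The groups did not overlap at either temperature, with *cry1* below WT at 22°C and above it at 44°C.

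*BBX16* and *BBX18* encode B-box zinc-finger proteins of photomorphogenesis. *BBX16* stood at 41.3, 30.8 and 40.3 CPM in WT and 17.8, 19 and 18 in *cry1* at 22°C, and at 0.474, 1.09 and 0.748 and then 2.29, 2.09 and 2.56 CPM in the heated libraries. The heated WT value rests on 26 counts. *BBX18* stood at 21.4, 18.5 and 17.6 CPM in WT and 14, 13.4 and 11.9 in *cry1* at 22°C. After heat it stood at 4.17, 5.6 and 4.86 CPM in WT and 8.24, 13.4 and 10.4 in *cry1*, where it overlapped with the unheated libraries and kept 81.5%. *SLP1*, a chloroplast protein phosphatase, kept 18% in WT and 56.1% in *cry1*. In the list of light-signalling genes, which held 2 members, 4 of the 44 tested were called higher in heated *cry1* and 1 lower (2.31 and 3.53% of all genes).

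The cell wall and extracellular matrix made up the largest role group, with 25 members. They kept a median of 6.06% in WT and 15.2% in *cry1*, and 23 of them stood at least 2-fold lower in heated *cry1*. *XTH7*, a xyloglucan endotransglucosylase that cuts and rejoins wall polymers, stood at 364, 305 and 318 CPM in WT and 376, 309 and 278 in *cry1* at 22°C. After heat it stood at 3.8, 3.34 and 4.58 CPM in WT and 8.3, 8.97 and 6.63 in *cry1*. The groups overlapped before heat and separated after it, while the share kept was 1.19% in WT and 2.48% in *cry1*. *EXPB3*, a beta-expansin, stood at 130, 118 and 156 CPM in WT and 107, 128 and 162 in *cry1* at 22°C. After heat it stood at 0.664, 0.836 and 0.467 CPM in WT and 1.36, 2.88 and 0.788 in *cry1*. Here the heated libraries overlapped, and the heated WT level rests on 22 counts.

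The alpha-expansins, which loosen walls in growing cells, and the expansin-like *EXLA2* kept more, 6.67 to 18% in WT. *EXPA4* stood at 5.22, 3.68 and 5.14 CPM in heated WT and 11.3, 11.6 and 11 in heated *cry1*. *EXPA5* stood at 3.51, 3.34 and 3.83 CPM and 6.69, 8.84 and 6.37. *EXPA11* stood at 14.1, 8.86 and 13.8 CPM and 23.5, 32.7 and 26.7, and *EXLA2* at 1.14, 1 and 1.03 CPM and 1.98, 2.42 and 1.97. None of these 4 overlapped between the heated groups (136 of all 171 members and 14.1% of all genes separated in that direction). Each of these 4 was also higher in *cry1* by the mean at 22°C, by 1.18 to 1.73 times. The list of expansins and xyloglucan enzymes held 46 tested genes, 6 of them members. In heated *cry1*, 5 were called higher and 3 lower (2.31 and 3.53% of all genes), or 7 and 2 under TMM or median-ratio scaling. The rule chose the 6 members on this contrast, so nothing is read from the higher calls. The list's median log2 fold change at 44°C was -0.01 (0.11 under TMM). On heating, 33 of the 46 were called lower in WT and 39 in *cry1* (46.2 and 58% of all genes).

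Other wall genes were *GH9C2*, a cellulase-family glycosyl hydrolase, and *PRP4*, a proline-rich wall protein. *GH9C2* kept 4.02% in WT and 4.82% in *cry1* and stood 1.87 times higher in *cry1* before heat, so its ratio of 2.23 after heat was hardly larger than the one before. *PRP4* was at 279 to 289 CPM in WT and 278 to 341 in *cry1* at 22°C, and then at 39 to 78.2 and 123 to 167. AT1G03820, annotated as E6-like, and AT1G70985, a hydroxyproline-rich glycoprotein, gave ratios of 12.3 and 4.69 that each rest on 2 counts in heated WT. Their counting intervals ran from 3.10 to 104 and from 1.05 to 42.2 (95%, counting error only).

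Lipid transfer, cuticle and lipid metabolism held 13 members and lost the most, with medians of 1.84% kept in WT and 4.63% in *cry1*. AT2G44290, a lipid-transfer protein, had the largest ratio at 44°C of the 160 members with counts in heated WT. It stood at 0.0949, 0 and 0.0935 CPM in heated WT and 0.929, 1.18 and 1.12 in heated *cry1*. The ratio of 17.1 comes from 2 counts against 50 and has a counting interval from 4.67 to 151. *LTP3*, which carries lipids to the cuticle, stood at 0.285, 0.919 and 0.374 CPM and 1.86, 2.42 and 1.12. Both genes kept less than 11% in either genotype. AT1G62510, of the same superfamily, went the other way in *cry1*. It stood at 27.3, 34 and 30.2 CPM in WT and at 8.27, 5.05 and 6.49 in *cry1* at 22°C. After heat it stood at 4.46, 2.84 and 4.86 CPM in WT and at 7.55, 12.6 and 7.95 in *cry1*. It was the member with the highest share kept in *cry1* (142%), the heated and unheated *cry1* libraries overlapped, and *cry1* had begun at 0.216 of the WT level.

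Defence and specialised metabolism held 11 members. *ECS1* had the largest ratio at 44°C (8.47) among members with 100 counts or more in heated WT. It stood at 204, 204 and 232 CPM in WT and 274, 354 and 324 in *cry1* at 22°C. After heat it stood at 5.12, 3.84 and 5.05 CPM in WT and 46.8, 42.3 and 29.5 in *cry1*, so that the heated groups were far apart. *CORI3*, a cystine lyase induced by jasmonate and coronatine, stood at 6.74, 9.27 and 7.39 CPM in heated WT and 47.2, 48.5 and 36.8 in heated *cry1*. Before heat it stood at 41.9, 66.9 and 30.4 CPM in WT and 107, 90.8 and 80.2 in *cry1*, again without overlap. *THI2.2*, a thionin (a small antimicrobial peptide), stood at 181, 200 and 150 CPM in WT and 52.7, 29.9 and 39.2 in *cry1* at 22°C, and at 7.69, 10.4 and 12.5 and then 26.7, 27.1 and 25.8 CPM in the heated libraries. It kept 5.76% in WT and 65.4% in *cry1*, from a mutant level that was 0.229 of WT before heat. Of the 22 jasmonate and wounding genes tested, 1 was called higher and 2 lower in heated *cry1* (2.31 and 3.53% of all genes). *CORI3* was the only member in that list. The glucosinolate synthesis list gave 0 higher and 8 lower of 28, against 2.31 and 3.53% of all genes (6 lower under TMM or median-ratio scaling). Its only member was *MYB29*, an activator of aliphatic glucosinolate genes.

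The 3 Bet v 1 and MLP-like proteins, a family of small ligand-binding proteins, were among the most abundant members. AT4G23670 stood at 1604, 1593 and 1699 CPM in WT and 1760, 1579 and 1586 in *cry1* at 22°C. After heat it stood at 129, 128 and 142 CPM in WT and 371, 400 and 272 in *cry1*. The unheated groups overlapped and the heated groups did not. *MLP28* and *MLP43* lie 4 genes apart on chromosome 1 and kept 33.2 and 42.4% in WT, and 50 and 56.3% in *cry1*. Both were higher in *cry1* before heat as well, by 1.76 and 1.51 times.

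Among signalling genes, the calmodulin-like AT2G41090 stood at 9.3, 5.77 and 8.97 CPM in heated WT and 38.6, 27.4 and 23.6 in heated *cry1*. *MSS3*, another EF-hand calcium sensor, stood at 1.14, 1.67 and 2.24 CPM and 3.9, 3.01 and 4.01. In neither did the heated groups overlap. In the list of arabinogalactan and lipid transfer proteins, which held 1 member, 2 of 30 were called higher and 0 lower in heated *cry1* (2.31 and 3.53% of all genes). In that of calcium and touch genes, which held 2 members, 3 of 21 were called higher and 1 lower (2.31 and 3.53% of all genes). The 15 lists with no member held 15 to 55 tested genes each. They had 0 to 3 genes called higher and 0 to 4 called lower (2.31 and 3.53% of all genes). *RGF9*, a root meristem growth factor peptide, kept 3.38% in WT and 11.9% in *cry1*. The 4 cell-division genes (*PLE*, *POK1*, *AUR2* and *CYCA3;2*) were all under 20 CPM in each group mean and kept 7.10 to 23.6% in WT and 9.38 to 34% in *cry1*. Their heated groups separated in 3 of 4 cases (136 of all 171 members and 14.1% of all genes). The 9 transporters kept medians of 13% and 19.2%. They include *LAX2*, an auxin importer, with 2.28, 2.67 and 2.52 CPM in heated WT and 5.33, 7.33 and 5.65 in heated *cry1*.

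**Figure D4:**
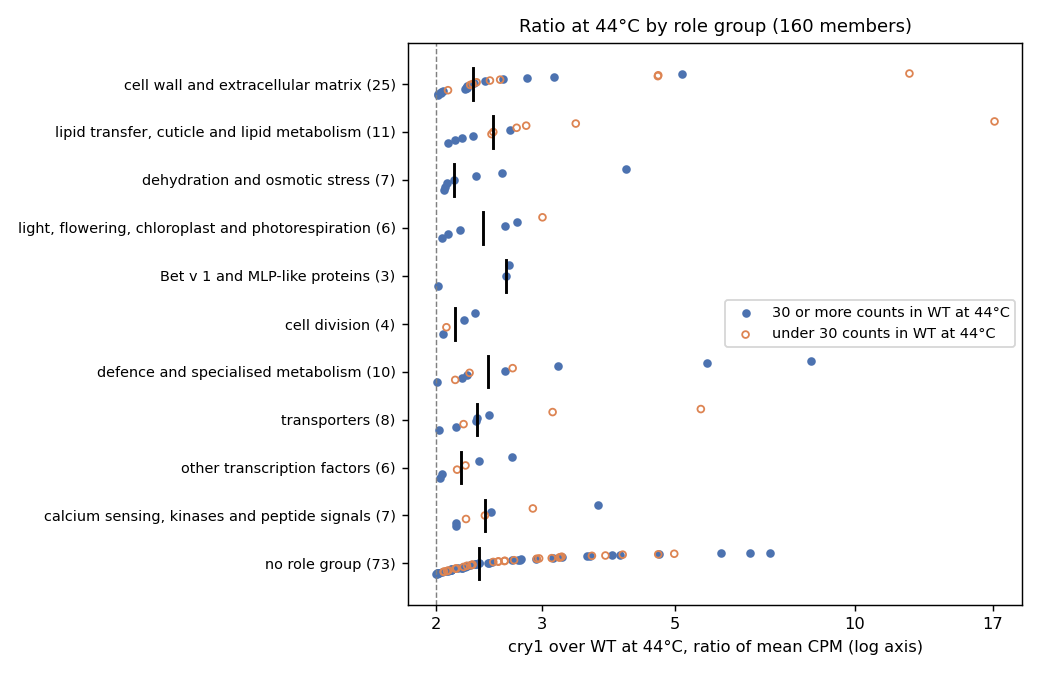
Ratio of cry1 to WT at 44°C (x axis, log) for the 160 members with counts in heated WT, by role group (number of members plotted in brackets). Black ticks are medians, open circles mark members with under 30 counts in heated WT, and the dashed line is the 2-fold limit of the rule. The group medians lie between 2.14 and 2.61, and the points beyond 10 are open circles.

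Of the members without a role group, AT2G25510, an uncharacterized protein, stood at 107, 146 and 99.6 CPM in WT and 156, 228 and 214 in *cry1* at 22°C, and at 1.33, 0.919 and 2.62 and then 10.4, 14.3 and 7.81 CPM in the heated libraries. The heated groups did not overlap, and the ratio was 6.68. AT5G42092, a long noncoding RNA, stood at 4.79, 1.36 and 0 CPM in heated WT and 6.69, 18.3 and 11.8 in heated *cry1*, with values in WT that reached from 0 to near the lowest *cry1* library. AT1G28400, annotated as a GATA zinc finger protein, kept 0.691% in WT and 1.29% in *cry1*, and its heated libraries overlapped. Among the members with counts in heated WT, the steepest falls in WT came with few counts and carry wide counting intervals. The ratio was 2.68 for *scpl10*, a carboxypeptidase-like protein (9 against 34 counts, 1.26 to 6.37). It was 5.53 for *ENT6*, a nucleoside transporter (1 against 8, 0.763 to 253), and 2.29 for AT5G66740 (2 against 6, 0.382 to 21.6). *CYP71A19*, a cytochrome P450 that was among the least kept in *cry1*, gave 2.27 (3 against 10, 0.611 to 13.4). For the last 3 the interval includes a ratio of 1.

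The 35 members that stood less than 2-fold lower in heated *cry1* are those closest to the working name. All 35 had at least 30 counts in heated WT. For all 35 the heated *cry1* libraries lay above the heated WT libraries (136 of all 171 members and 14.1% of all genes). The rule used that contrast. For 25 the heated *cry1* libraries still lay below all unheated *cry1* libraries (161 of all 171 members and 76.7% of all genes), and for the other 10 the *cry1* libraries overlapped between temperatures. They kept a median of 33.6% in WT and 65.7% in *cry1*. The share in dehydration and osmotic stress was 5 of 35, and 17 had no role group. AT1G13930, annotated as oleosin-B3-like, was the most abundant of them. It stood at 1238, 1407 and 1046 CPM in WT and 1402, 1327 and 1169 in *cry1* at 22°C. After heat it stood at 470, 523 and 415 CPM in WT and 1018, 1063 and 1023 in *cry1*. Next to AT1G62510, only AT4G33040, a thioredoxin-family protein, stood above its unheated level in *cry1*, at 107%, and its libraries overlapped (8.87, 8.86 and 7.84 CPM before heat and 11.3, 9.16 and 6.89 after). AT3G55760 and AT1G51090 kept 93.3 and 85.7% in *cry1* and 31.7 and 31.4% in WT, also with overlap between heated and unheated *cry1*. AT1G80130, a tetratricopeptide-repeat protein, kept 19% in WT and 75% in *cry1* and had a ratio of 7.21 at 44°C, from 73 counts in heated WT.

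At 22°C the members stood a median of 1.21 times higher in *cry1* than in WT, with 122 above and 49 at or below the WT level. In the fit 0 were called higher, as the rule demands, and 12 lower (1.55% of all genes). The median log2 difference was 0.28 over the members and 0.25 over all genes. *FBA5* and *THI2.2* began below WT, and *CORI3* and *GH9C2* above it.

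At the bottom, 8 members had no count in any of the 6 heated libraries and met the ratio only as 0 against 0: *FdC1*, *MYB29*, *CYP86A7*, AT1G22610, AT3G22530, AT1G31690, AT1G54540 and AT5G62210. A count of 0 in heated WT allows up to 0.0903 CPM over the group (3 counts, counting error only). *FdC1*, a plastid ferredoxin, had stood at 25.2, 28.1 and 27.4 CPM in WT and 17.7, 19.6 and 15 in *cry1* at 22°C, and AT1G22610 at 33.4 and 41.6 CPM by the mean. A further 3 were at 0 in heated WT only. *FT*, which encodes the mobile flowering signal, stood at 26.9, 25.4 and 32.6 CPM in WT and 10.8, 15.7 and 19.7 in *cry1* at 22°C, and its heated *cry1* libraries held 4 counts in all. AT1G06100 held 1 count there. Only *MOT1*, a molybdate transporter, had a heated *cry1* level over that limit, with a mean 3.82 times the limit from 16 counts. The counting error of those 16 counts was not included. For the other 10 genes a difference between the heated genotypes was not detectable at this depth.

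Gene structure and position played no part in the rule. Single-exon genes made up 28.1% of the members (48 of 171), 17.7% of all genes tested and 16.4% of the genes that fell at least 2-fold in WT. Genes with at most 2 exons made up 49.1, 32.6 and 31.2%. The median exonic length was 1678 bases in the members, 1776 in all genes and 1956 in those that fell in WT. Members lay on all 5 chromosomes, with 31.6% on chromosome 1 against 26.4% of all genes. There were 12 pairs of neighbouring members within 10 genes of each other. AT1G80120 and AT1G80130 are next to each other (chromosome 1, 30138818 to 30142697), *SCPL11* and *scpl10* have 2 genes between them, and *CORI3* and AT4G23670 have 7. Reads of the close relatives *MLP28* and *MLP43*, and of *scpl10* and *SCPL11*, may be divided between the copies by the counting.

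Promoter motifs were searched on both strands in the 250 bases before the gene start of the 171 members and of 20213 tested genes. ACGT was present in 52.6% of the members (Wilson 95% interval 45.2 to 60%) and 44.6% of all genes, and in 60% of the 35 members that *cry1* kept best (43.6 to 74.4%). The G-box, which contains ACGT, was present in 9.36% (5.84 to 14.7%) and 7.43%. The DRE (ACCGAC) was present in 9.36% (5.84 to 14.7%) and 5.19%, the interval just clear of the background. The TCP site (GGNCCCAC) was present in 3.51% (1.62 to 7.44%) and 1.29%, on 6 promoters, and the MYC site (CACATG) in 15.2% (10.6 to 21.3%) and 11.1%. The heat shock element (GAANNTTC or TTCNNGAA) was present in 12.9% (8.65 to 18.7%) and 15.7%, and the W-box (TTGACC or TTGACT), bound by WRKY factors, in 22.8% (17.2 to 29.7%) and 28.0%. The TATA box (TATAAA) was in 48.5 and 45.9%, the evening element (AAAATATCT) in 1.75 and 2.49%, the telo box (AAACCCTA) in 3.51 and 3.54% and the GCC box (AGCCGCC) in 1.17 and 0.589%. Of the 11 motifs, the intervals of ACGT, DRE and TCP lay above the share of all genes. In windows that ran 50 bases past the start, ACGT was in 55.6% (48.1 to 62.8%) against 50.7%, where the interval included the share of all genes. A match describes letters in a window and is neither a site nor a cause.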

How the data were processed

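RNA-seq of whole seedlings was analysed in 12 libraries, 3 for each of 4 groups taken from the sample titles. The authors deposited expected counts per gene, which are estimates and not always whole. The study's methods give trimming with Trimmomatic and quantification with RSEM against TAIR10. TopHat2 2.0.11 is listed in the processing notes that the submitters gave. The labels mention polyA RNA, rRNA depletion and a stranded kit, but not whether strand was used in counting, so antisense partners cannot be told apart. The methods give a shorter growth in white light than the labels.

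CPM used the column totals. Rounded counts of the 20214 genes with a mean of at least 0.5 CPM were fitted in edgeR 4.0.16 (R 4.3.3, robust quasi-likelihood, a term per group, library totals as scale), with Benjamini-Hochberg adjustment over all of them. Genes past 0.05 after adjustment and past 1 on the log2 scale were called. The script was tested on simulated data. DESeq2 1.42.0, TMM, other filters and left-out libraries were alternatives. The identifiers of all 26891 genes matched RefSeq TAIR10.1, which gave symbols, gene models and promoter windows. 0 columns were unmapped. Replicates differed by more than sampling noise (chi-square per gene 4.42 to 13.3).

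The members, the gene lists and the role groups were chosen with earlier results of these data known. Named members were the 8 most abundant in WT at 22°C and the 8 with the largest ratio at 44°C. Also named were the 8 with the largest fall in WT, and the 6 highest and 6 lowest in the share kept in *cry1*. Members of a gene list and those nearest a threshold were named too. Ratios and falls in WT were ranked over the 160 members with counts in heated WT. The lowest shares kept in *cry1* were ranked over the 163 members with counts at 44°C. *P5CS1*, *GolS4*, *PLC1*, *THI2.2*, *SLP1*, *GH9C2*, *PRP4*, *MLP43*, *RGF9*, *LAX2*, *MOT1*, *FdC1* and the other members named as examples of a role were chosen after their values were seen. Intervals and floors cover counting error only.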

Additional observations from a re-analysis of the deposited data

Results flagged for a closer look

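The heat responses of the genotypes differed for 64 of the 171 members, which were called as falling less in *cry1* than in WT by the interaction term of the edgeR fit over all genes (1.43% of all genes tested). The count was 99 under TMM, 100 under median-ratio scaling and 109 with DESeq2. The rule that chose the members used the same contrast, so the count is a description and not a separate finding. With 3 libraries per group, no group was large enough to look for single outlying libraries.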

How the results depend on the processing

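The number of genes meeting the rule was 593 with 1.5-fold and 43 with 3-fold limits, and 430 and 106 with floors of 1 and 10 CPM. It was 177 under median-ratio scaling, of which 123 were among the 171, 182 under TMM (124 shared), and 139 to 221 when single libraries or a replicate number were left out. The lowest of these, 139 with 127 shared, came without the heated *cry1* library of replicate 2. In the left-out libraries all conditions were met by 28.1 to 44.2% of the genes chosen without them. The count of members called in the interaction was 99 (TMM), 100 (median-ratio) and 109 (DESeq2) in place of 64, and 50 to 66 without single libraries. The count called higher at 44°C was 129, 90 without the heated *cry1* library of replicate 2 and 115 with the compared groups alone. Members at least 2-fold lower in heated *cry1* numbered 136 of 171 with library totals and 96 of 171 under either scaling. They were 69 of the 104 members with 30 counts or more in heated WT (chosen after seeing the data). The log2 response of *cry1* to heat turned positive under TMM and median-ratio scaling for AT1G13930 (0.85 and 0.87), *SIP3* (0.74 and 0.76), *MLP28* (0.18 and 0.20), AT1G80130 (0.76 and 0.78), *CORI3* (0.11 and 0.13) and *RD20* (0.48 and 0.50), by the shift of the scale, and *EXPA5* at 22°C became -0.0044 under median-ratio scaling. These were the 13 sign changes counted among 3000 values of 40 named genes, and the count is incomplete. It left out the heat response in *cry1* of AT3G55760 (-0.10 with library totals), AT1G51090 (-0.23), *BBX18* (-0.30) and *LTI30* (-0.49). The TMM shift of 1.16 for that comparison also turns these positive. In windows that run 50 bases past the start the TATA box was found in 56.1% of the members (48.6 to 63.4%) and 51.2% of all genes. Replicate numbers showed no steady pairing of the samples (2 of 18 same-number pairs had a correlation over 0.1, range -0.13 to 0.25). Those 2 and the lowest value were all between unheated WT and unheated *cry1* (0.158, 0.254 and -0.133 in replicates 1, 3 and 2). With the replicate number as a block 62 members were called in the interaction, 130 at 44°C and 134 for heat in *cry1*.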
